A study of Mus musculus with 6 samples.

Results

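The transcripts described here encode the matrix metalloproteases (Mmp), the ADAMTS proteases and the tissue inhibitors of metalloproteases (Timp) of mouse mesenchymal stem cells. They were chosen by gene symbol, as all genes named Mmp, Adamts or Timp followed by a number (with an a or b for some Mmp genes) that had a probe set with exactly 1 symbol in the platform annotation. This gave 37 genes among 18193 in all, made up of 18 Mmp, 15 Adamts and 4 Timp genes, read by 70 probe sets. The brightest probe set over the 6 arrays stood for each gene. Mmp15, Mmp21, Mmp25, Mmp27, Mmp28, Adamts2, Adamts13, Adamts14 and Adamts17 had no such probe set and were not analysed here.

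All cultures came from 1 commercial source of mouse mesenchymal stem cells and had been given 1 µM roziglitazone, 5 µg/ml insulin, 100 µM 3-isobutyl-1-methylxanthine and 1 µM dexamethasone once more 48 h before the exposure, so that irradiated and control cultures shared these compounds. In each of 3 independent experiments 1 irradiated culture was exposed for 2 h to a continuous-wave laser at 2.52 THz, a wavelength of 118.8 µm, and 1 control culture stood beside it without exposure, both at 26 to 27 °C. Total RNA was extracted directly after exposure, which gave 3 irradiated and 3 control samples, each on 1 Affymetrix array. Values are on the log2 scale of RMA, a method of background correction, quantile normalization and probe summary. A difference of 1 on this scale is a 2-fold change. Arrays give no read depth, so precision is limited by how many there are. The comparison asks which of these transcripts differed after exposure, each irradiated culture being set against the control beside it.

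Matrix metalloproteases are zinc enzymes that cut collagens, gelatin, laminins and other proteins outside the cell. Most are secreted as inactive precursors, and the membrane-type enzymes stay anchored to the cell surface. The ADAMTS proteases are secreted relatives with thrombospondin repeats, which trim procollagens and cut proteoglycans such as versican and aggrecan. The Timp proteins bind the active site of metalloproteases and block it, and Timp3 also inhibits several ADAM and ADAMTS enzymes. In fat-forming stromal cells these enzymes and inhibitors remodel the collagen-rich matrix as the cells round up and fill with lipid.

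Of the genes described here 9 lie side by side on mouse chromosome 9, in the order Mmp13, Mmp12, Mmp1b, Mmp3, Mmp1a, Mmp10, Mmp8, Mmp20 and Mmp7, with Mmp27 between Mmp8 and Mmp20. Their promoters are shown because 8 of these 9 genes hold the letters TGANTCA within 250 bases before a start site. The pattern takes in TGAGTCA and TGACTCA, the core bound by the AP-1 factors of the Fos and Jun families. The Mmp20 match, TGAATCA, is outside that core. The pattern reads the same on both strands. RefSeq promoter windows of GRCm38.p6 were matched by gene identifier for 23 of the 37 genes, and the pattern was in 8 of 26 such windows (30.8%), against 2217 of 32851 windows of the same length over all genes (6.75%). It was in no window of the 14 matched genes outside the cluster. Mmp12 and Mmp7 each have 2 start sites, and only 1 window of each held it. The first base of the match lay 35 (Mmp13) to 95 (Mmp20) bases before the start. Each stretch below has 15 bases on either side of the match, which is in capitals, and is written 5′ to 3′ on the strand of the gene.
Mmp13: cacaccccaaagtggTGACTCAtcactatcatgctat
Mmp12: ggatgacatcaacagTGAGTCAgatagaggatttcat
Mmp1b: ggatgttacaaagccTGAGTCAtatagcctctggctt
Mmp3: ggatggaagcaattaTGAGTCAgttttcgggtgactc
Mmp1a: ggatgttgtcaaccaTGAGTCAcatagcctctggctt
Mmp10: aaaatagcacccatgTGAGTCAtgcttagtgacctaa
Mmp20: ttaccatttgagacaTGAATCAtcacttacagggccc
Mmp7: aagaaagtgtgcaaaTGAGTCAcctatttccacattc
The stretches are chr9:7272464-7272500 for Mmp13, chr9:7347315-7347351 for Mmp12, chr9:7445761-7445797 for Mmp3, chr9:7464053-7464089 for Mmp1a, chr9:7502264-7502300 for Mmp10, chr9:7628121-7628157 for Mmp20 and chr9:7692012-7692048 for Mmp7, all on the plus strand, and chr9:7388098-7388134 on the minus strand for Mmp1b. A match is a run of letters and not a shown binding site.

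No Mmp, Adamts or Timp transcript was called different after irradiation. A limma model with a block per experiment and Benjamini-Hochberg adjustment over all genes called 0 of the 37, where it called 0 of 18193 genes (0%), and the adjusted p was 0.995 for each of the 37. At an unadjusted p under 0.05 limma gave 0 of the 37, against 603 of all genes (3.31%). The groups overlapped in all 37, where they did not overlap in 8.26% of all genes. The difference kept 1 sign in all 3 experiments in 2 of the 37, Timp3 and Adamts1, against 21% of all genes. Timp3 was higher each time, as were 8.23% of all genes, and Adamts1 lower each time, as were 12.8%. Of the 37 genes 18 were above 0 and 19 below, and their median was -0.013 log2 units, where 45.2% of all genes were above 0 and their median was -0.010. For 34 of the 37 the 95% interval of the difference stayed inside 1.5-fold up or down (98.3% of all genes) and for all 37 inside 2-fold (99.9%). The 3 outside 1.5-fold were Timp3, Mmp3 and Mmp8.

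**Figure D1:**
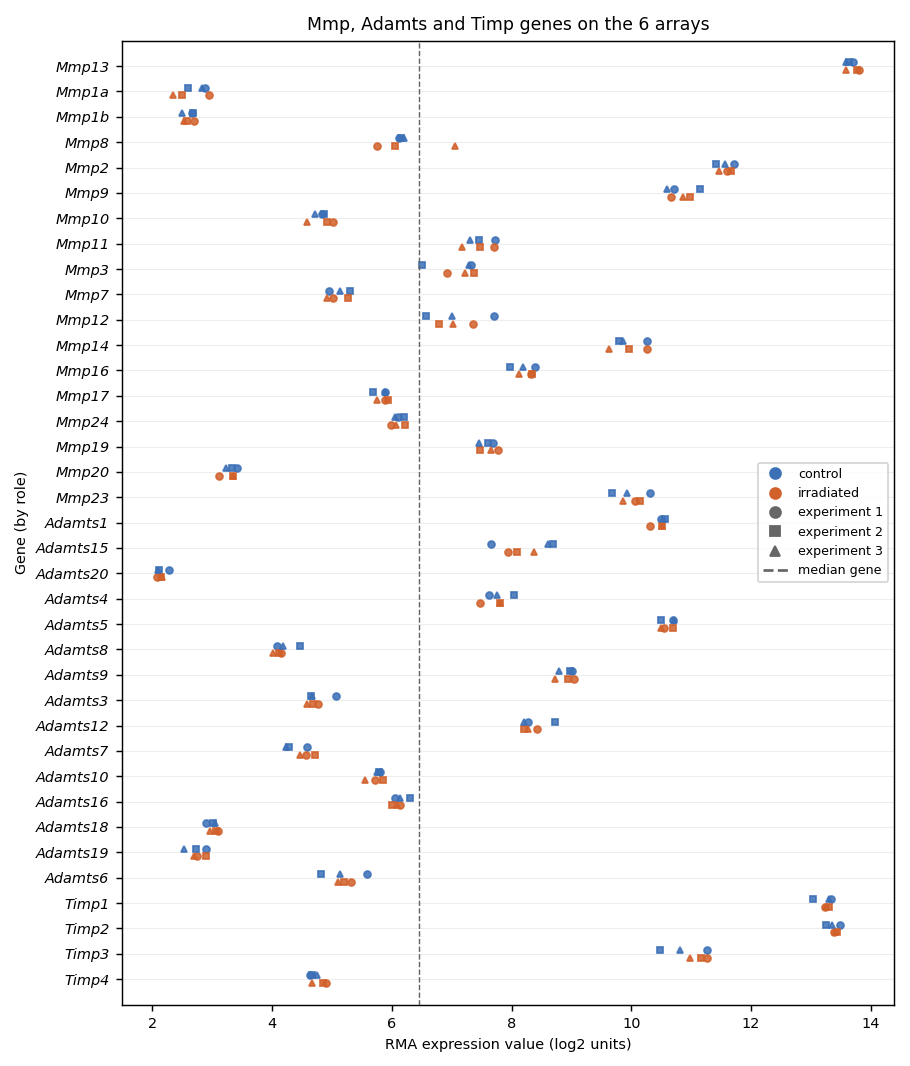
RMA expression values (log2 units, x axis) of the 37 genes on the 6 arrays, with the genes ordered by role, control arrays in blue, irradiated arrays in orange and 1 symbol per experiment. The dashed line marks the median gene at 6.46; 19 genes had a mean at or above it, and in every row the blue and orange symbols overlap.

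The genes fell on both sides of the array's median gene, whose mean level was 6.46. A mean at or above it was found in 19 of the 37 (50% of all genes), of which 10 were Mmp, 6 Adamts and 3 Timp genes. A level also depends on the probes themselves, so levels give no ratio between genes.

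The collagenases cut intact fibrillar collagen. Mmp13, collagenase 3 and the main collagenase of rodents, read 13.71, 13.63 and 13.59 in the controls of experiments 1 to 3 and 13.81, 13.78 and 13.58 in the irradiated cultures. It differed by 0.080 log2 units (SE 0.080, 95% interval -0.11 to 0.27, n = 3 pairs), and the groups overlapped. Mmp1a and Mmp1b, the rodent counterparts of interstitial collagenase, were dim, and Mmp1a read 2.88, 2.59 and 2.83 in controls and 2.94, 2.49 and 2.34 in irradiated cultures, a difference of -0.18 (SE 0.12). Mmp1b stood at -0.013 (SE 0.080).

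Mmp8, neutrophil collagenase, lay just below the median gene and is described because its value in 1 array was seen to stand apart. It read 6.12, 6.15 and 6.21 in the controls and 5.76, 6.05 and 7.06 in the irradiated cultures. Only the irradiated culture of experiment 3 was above 6.21, so the mean difference of 0.13 (SE 0.22) came from 1 array, and without experiment 3 it was -0.23. In that array the 8 measured macrophage markers had their highest mean, 10.97 against 10.27 to 10.70 in the other 5, and 3 of the 6 neutrophil markers their highest value, Camp at 6.07, S100a8 at 9.68 and Elane at 4.81. Another neutrophil marker, S100a9, had its lowest value there, 3.09. Their part in the Mmp8 value was not tested.

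The gelatinases Mmp2 and Mmp9 cut denatured collagen and basement membrane. Mmp2 read 11.71, 11.41 and 11.57 in controls and 11.60, 11.66 and 11.47 in irradiated cultures, and its other probe set gave the same signs in each experiment. Mmp9 read 10.71, 11.15 and 10.60 in controls and 10.67, 10.99 and 10.87 in irradiated cultures. The differences were 0.013 (SE 0.0998) for Mmp2 and 0.023 (SE 0.10) for Mmp9, both smaller than their errors. The second probe set of Mmp9 stood at -0.030, on the other side of 0.

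Among the stromelysins, of which Mmp3 and Mmp10 cut proteoglycans and activate other pro-enzymes, Mmp3 was the most uneven. It read 7.33, 6.51 and 7.29 in controls and 6.92, 7.37 and 7.22 in irradiated cultures, where only the control of experiment 2 lay under 6.92. The differences of -0.41, 0.86 and -0.070 in the 3 experiments averaged 0.13 (SE 0.22), and without experiment 2 the mean was -0.24. Mmp11, stromelysin 3, read 7.73, 7.45 and 7.31 in controls and 7.70, 7.47 and 7.17 in irradiated cultures, a difference of -0.050 (SE 0.080). Mmp10, stromelysin 2, was below the median gene at 0.033 (SE 0.090). The proximal promoter of Mmp3, given because this gene spread most within an experiment, runs over the 120 bases before its start at chr9:7445702-7445821 (GRCm38.p6, plus strand), with the TGANTCA match in capitals.
Mmp3 promoter: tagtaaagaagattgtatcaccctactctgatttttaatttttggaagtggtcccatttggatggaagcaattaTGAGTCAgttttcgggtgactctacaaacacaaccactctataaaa

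Mmp12, macrophage elastase, read 7.71, 6.57 and 7.0 in controls and 7.36, 6.78 and 7.03 in irradiated cultures. Both cultures of experiment 1 lay above all 4 others, and the irradiation difference was -0.037 (SE 0.12). Mmp7, matrilysin, a small enzyme best known from epithelia, was below the median gene at -0.063 (SE 0.087).

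The membrane-type enzymes include Mmp14, which activates Mmp2 at the cell surface and cuts pericellular collagen. Mmp14 read 10.27, 9.80 and 9.87 in controls and 10.27, 9.96 and 9.63 in irradiated cultures, with a difference of -0.027 (SE 0.099). Its 2 other probe sets stood at 0.033 and 0.017, so that the sign of this small difference depended on the probe set. Mmp16 read 8.39, 7.97 and 8.19 in controls and 8.33, 8.34 and 8.12 in irradiated cultures (difference 0.080, SE 0.11). Its 4 probe sets were all above 0 in experiment 2, at 0.37, 0.50, 0.30 and 0.61, and all below 0 in experiment 3. Mmp17 (0.037) and Mmp24 (-0.033), 2 further membrane enzymes, were below the median gene.

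Mmp19 and Mmp23 do not belong to these classes. Mmp19 read 7.69, 7.60 and 7.46 in controls and 7.77, 7.47 and 7.66 in irradiated cultures, at 0.050 (SE 0.092). Mmp23 read 10.31, 9.68 and 9.93 in controls and 10.07, 10.15 and 9.86 in irradiated cultures, at 0.053 (SE 0.14). As in Mmp2, Mmp3 and Mmp16, the control of experiment 2 was the lowest array for Mmp23, and without that experiment its mean was -0.155. Mmp20, an enzyme of tooth enamel, was dim at -0.060.

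**Figure D2:**
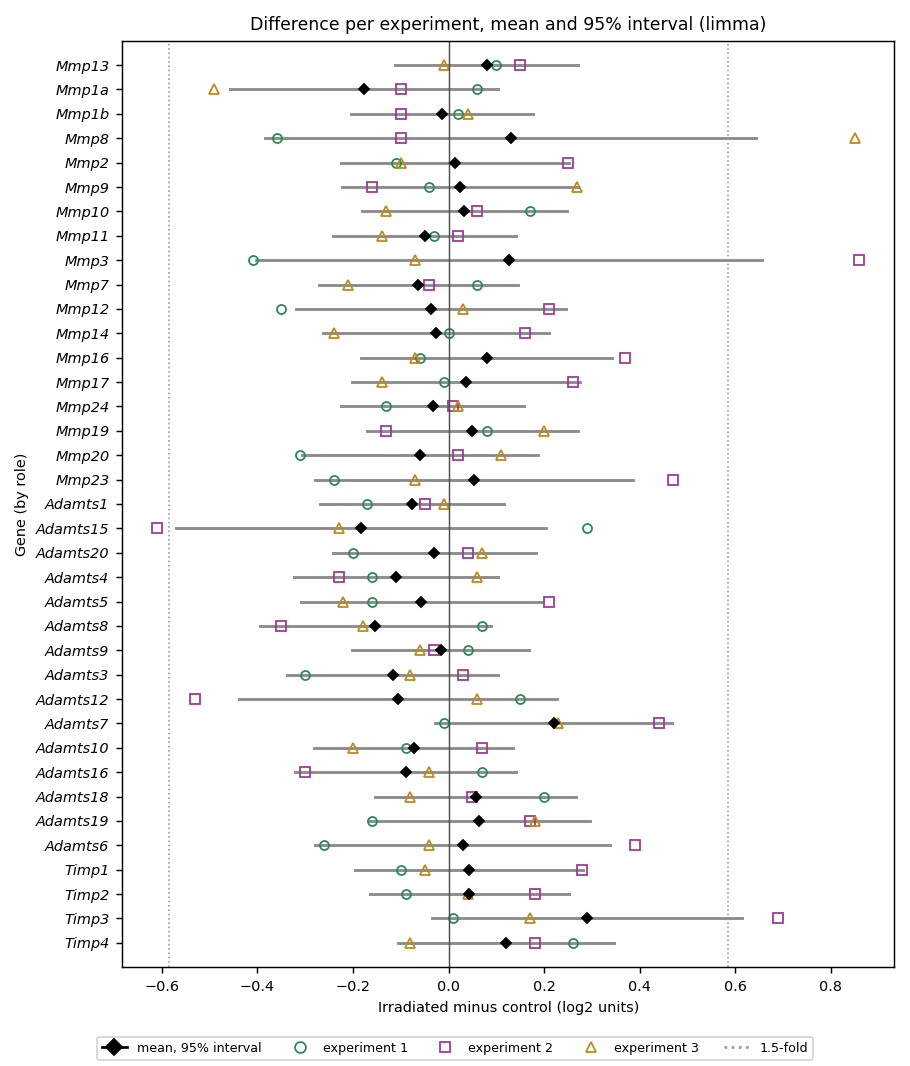
Irradiated minus control in log2 units (x axis) for the 37 genes, ordered by role: open symbols are the 3 experiments, black diamonds their mean and grey bars the 95% interval from limma. Every interval includes 0, and those of Timp3, Mmp3 and Mmp8 cross the dotted 1.5-fold line; the squares of experiment 2 lie far right for Mmp3 (0.86) and Timp3 (0.69) and far left for Adamts15 (-0.61).

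All 7 measured proteoglycan-cutting ADAMTS genes had a mean below 0, with a median of -0.077 log2 units and a range of -0.18 to -0.017, and 0 of 7 passed. Adamts1 read 10.49, 10.56 and 10.53 in controls and 10.32, 10.51 and 10.52 in irradiated cultures, lower by 0.17, 0.050 and 0.010 in the 3 experiments. It was the only one of the 7 below 0 in every experiment (mean -0.077, SE 0.080). Adamts4, aggrecanase 1, read 7.63, 8.04 and 7.75 in controls and 7.47, 7.81 and 7.81 in irradiated cultures (-0.11, SE 0.090), and its other probe set stood at -0.22. Adamts5, aggrecanase 2, read 10.70, 10.49 and 10.71 in controls and 10.54, 10.70 and 10.49 in irradiated cultures (-0.057, SE 0.11). Its 3 other probe sets were above 0, at 0.063, 0.040 and 0.053, so the sign for Adamts5 was not shared by its probe sets. With the mean of all probe sets per gene 5 of the 7 were below 0.

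Adamts15 and Adamts8 had the lowest means of these 7. Adamts15, a versican- and aggrecan-cutting enzyme, read 7.65, 8.70 and 8.61 in controls and 7.94, 8.09 and 8.38 in irradiated cultures. Its differences of 0.29, -0.61 and -0.23 averaged -0.18 (SE 0.16, 95% interval -0.57 to 0.20), and without experiment 2 the mean was 0.030. Adamts8, a dim gene, read 4.08, 4.46 and 4.19 in controls and 4.15, 4.11 and 4.01 in irradiated cultures (-0.15, SE 0.10), and its mean was -0.055 without experiment 2. Adamts9 read 9.01, 8.97 and 8.79 in controls and 9.05, 8.94 and 8.73 in irradiated cultures, at -0.017 (SE 0.078). Its 2 dimmer probe sets stood on either side of 0, at 0.12 and -0.097. Adamts20 was near the bottom of the scale, between 2.08 and 2.28 on every array.

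The remaining ADAMTS genes had no common direction. Adamts12, which cuts cartilage oligomeric matrix protein, read 8.27, 8.73 and 8.21 in controls and 8.42, 8.2 and 8.27 in irradiated cultures. The control of experiment 2 was its highest array, the difference was -0.11 (SE 0.14), and it was 0.105 without that experiment. Adamts7, which cuts the same protein, was dim at 4.58, 4.28 and 4.24 in controls and 4.57, 4.72 and 4.47 in irradiated cultures, and had the second smallest unadjusted p in limma among the 37 (0.0743; difference 0.22, SE 0.10, adjusted p 0.995 with Benjamini-Hochberg). Adamts3, a procollagen N-proteinase, was at -0.12 (SE 0.093). Adamts6, Adamts10, Adamts16, Adamts18 and Adamts19 were below the median gene and ranged from -0.090 to 0.063. The 14 genes outside the naming rule, Mmp8 among them, read between 2.08 and 7.06, with 6 above 0, 8 below 0 and differences from -0.12 to 0.13.

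All 4 Timp genes had a mean above 0, with a median of 0.082 log2 units, and 0 of 4 passed. Timp3, which stays bound to the matrix, read 11.26, 10.48 and 10.81 in controls and 11.27, 11.17 and 10.98 in irradiated cultures. The irradiated cultures were higher by 0.010, 0.69 and 0.17, a mean of 0.29 (SE 0.14, 95% interval -0.034 to 0.61), and Timp3 had the smallest unadjusted p of the 37 in limma (0.0719; adjusted p 0.995 with Benjamini-Hochberg). The control of experiment 2 was its lowest array, and the mean was 0.090 without that experiment. The 3 other probe sets of Timp3 gave 0.62, 0.68 and 0.67 in experiment 2 and between -0.050 and 0.030 in experiments 1 and 3. In experiment 3 the 4 probe sets stood at 0.17, -0.050, 0.030 and -0.030, so the sign shared by all 3 experiments was that of the brightest probe set and not of the others.

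**Figure D3:**
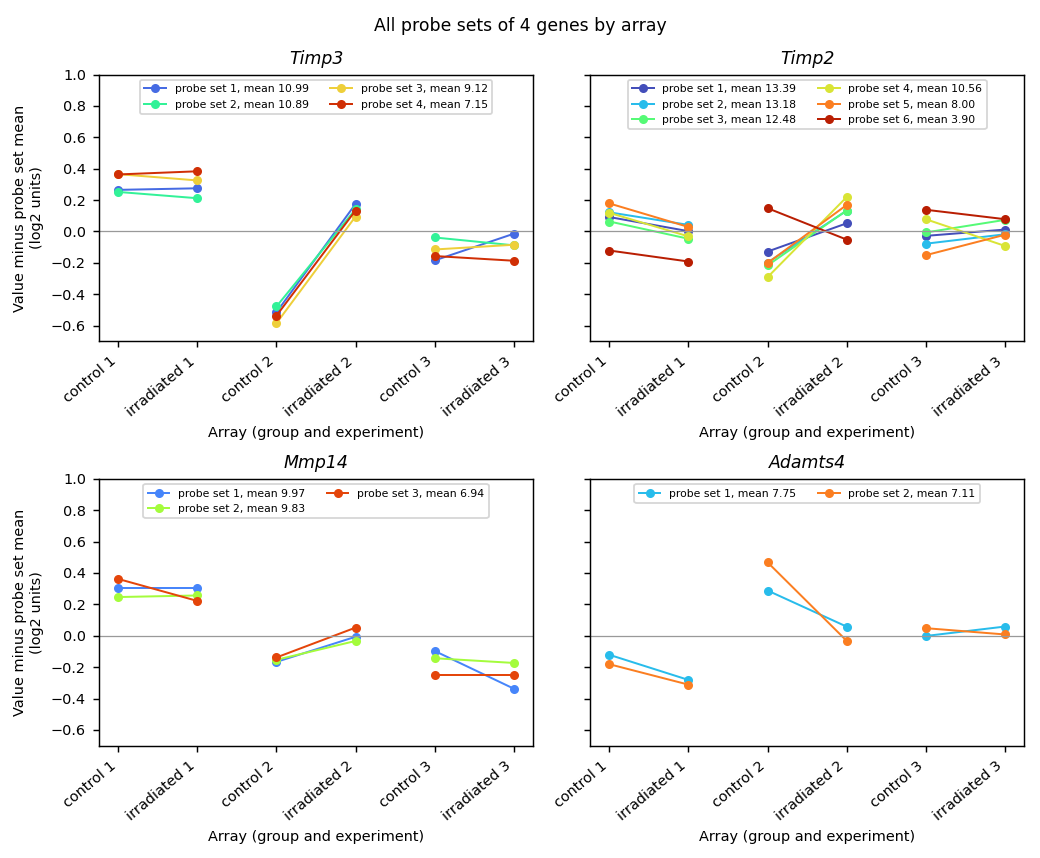
Each probe set of Timp3, Timp2, Mmp14 and Adamts4 on the 6 arrays (x axis), as value minus the probe set's own mean in log2 units (y axis), with a line joining the control and the irradiated culture of 1 experiment. The 4 Timp3 probe sets all dip in the control of experiment 2, 5 of the 6 Timp2 probe sets do so less deeply, and the 3 Mmp14 probe sets are highest in both cultures of experiment 1.

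The promoter of Timp3 is shown because this gene had the largest mean difference of the 37. It covers the 120 bases before the start at chr10:86300292-86300411 (GRCm38.p6, plus strand) and holds no TGANTCA.
Timp3 promoter: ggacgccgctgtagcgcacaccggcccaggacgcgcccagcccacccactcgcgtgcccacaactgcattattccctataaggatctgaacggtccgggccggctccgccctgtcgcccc

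Timp1 and Timp2 were among the bright probe sets of the array. Timp1, a secreted inhibitor that binds pro-Mmp9, read 13.33, 13.03 and 13.30 in controls and 13.23, 13.31 and 13.25 in irradiated cultures, at 0.043 (SE 0.10). Timp2, which with Mmp14 takes part in the activation of Mmp2, read 13.48, 13.26 and 13.36 in controls and 13.39, 13.44 and 13.40 in irradiated cultures, at 0.043 (SE 0.087). In both the control of experiment 2 was the lowest array, and without that experiment Timp1 stood at -0.075 and Timp2 at -0.025. Of the 6 Timp2 probe sets the 5 brightest were above 0 in experiment 2, at 0.18 to 0.51, and the dimmest, with a level of 3.9, was at -0.20. Timp4 was dim at 4.64, 4.67 and 4.75 in controls and 4.90, 4.85 and 4.67 in irradiated cultures (0.12, SE 0.094), and its other probe set stood at -0.057. By the brightest probe set, only 2 of the 4 Timp genes were above 0 without experiment 2, Timp3 and Timp4. In experiments 1 and 3 the 3 other Timp3 probe sets stood between -0.050 and 0.030. The other Timp4 probe set stood at -0.61 in experiment 1 and 0.16 in experiment 3.

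The control of experiment 2 was the lowest of the 6 arrays in 10 of the 37 (15.3% of all genes) and the highest in 8 (18.1% of all genes). Such counts were made for this array only, and other arrays were extreme too. The irradiated culture of experiment 3 was the lowest for Mmp11, Mmp13, Mmp14 and Adamts9, among others. The control of experiment 1 was the highest for Mmp2, Mmp12, Mmp16 and Timp2, among others. Among the 19 at or above the median gene the control of experiment 2 was the lowest in 8, against 1707 of 9099 such genes in all. It was the highest in 5, against 1285 of 9099. The 8 were Mmp2, Mmp3, Mmp12, Mmp16, Mmp23, Timp1, Timp2 and Timp3, and for Adamts5 this array tied for the lowest. In the same array the 6 measured fat cell markers (Fabp4, Adipoq, Lpl, Cidec, Cebpa and Pparg) had their highest mean, 12.62 against 12.22 to 12.52 in the other 5, and all 6 were lower in the irradiated culture of that experiment, with a median of -0.405. Their part in the values of these genes was not tested. In RNA of whole cultures, fewer cells of a type and less RNA per cell cannot be told apart.

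Differences between the experiments were also not called. In the same limma fit an F test over the 3 experiments, with each experiment's control and irradiated culture as its 2 arrays, called 0 of the 37 after Benjamini-Hochberg adjustment, where it called 0 of 18193 genes (0%), with a smallest adjusted p of 0.907 among the 37. At an unadjusted p under 0.05 the same limma test gave 6 of the 37 (16.2%), against 5.46% of all genes and 3.63% of genes at or above the median level, to which all 6 belong. These were Mmp12, Mmp11, Mmp14, Adamts15, Adamts4 and Mmp9. At that unadjusted p limma gave 1 of the 37, Mmp12, without experiment 1, 8 without experiment 2 and 7 without experiment 3. The share of all genes was not counted in these fits.

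For 5 of these 6, all but Mmp9, both arrays of experiment 1 lay on the same side of all 4 others. The genes were picked by the test between experiments, so such placing is partly given by that choice. The means of experiments 1, 2 and 3 were 7.54, 6.68 and 7.02 for Mmp12 (limma F test, unadjusted p 0.00208), 7.72, 7.46 and 7.24 for Mmp11 (0.00657) and 10.27, 9.88 and 9.75 for Mmp14 (0.00998), all highest in experiment 1. The other 2 probe sets of Mmp14 gave unadjusted p values of 0.0131 and 0.00769 in limma. For Adamts15 the means were 7.795, 8.395 and 8.495 and for Adamts4 7.55, 7.925 and 7.78, all lowest in experiment 1. Mmp9, with means of 10.69, 11.07 and 10.735, was highest in experiment 2. The second probe sets of Adamts4 and Mmp9 had unadjusted p values of 0.0314 and 0.0541 in limma.

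**Figure D4:**
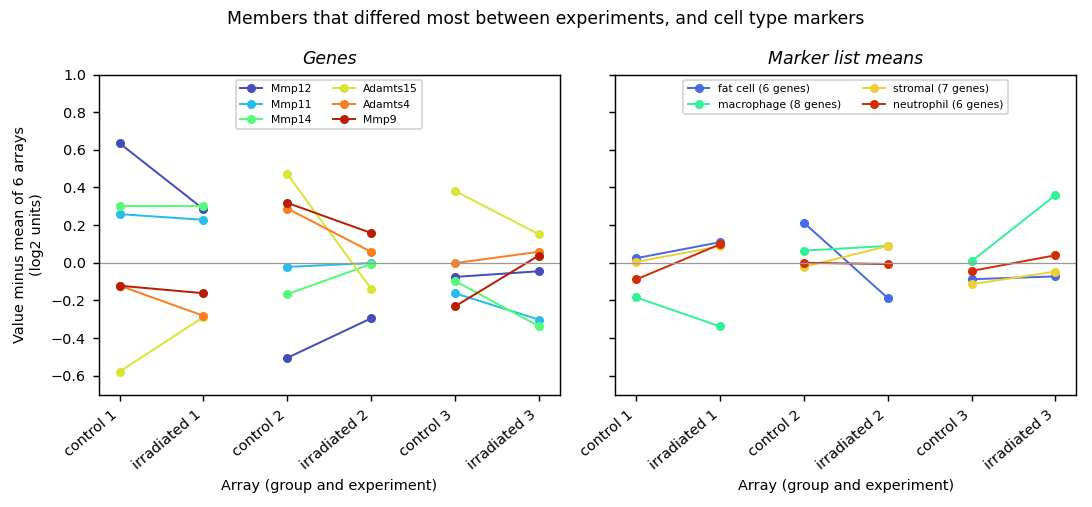
Value minus the mean of the 6 arrays in log2 units (y axis) by array (x axis), for the 6 genes with an unadjusted p under 0.05 between experiments (left) and for the means of 4 marker lists (right), with a line joining the 2 cultures of 1 experiment. Mmp12, Mmp11 and Mmp14 are highest in experiment 1, where the macrophage markers are lowest, and the fat cell markers are highest in the control of experiment 2.

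Markers of other cell types are given beside these values. The 8 measured macrophage markers, of which 7 were at or above the median gene with Lyz2 at a level of 14.17, Csf1r at 12.78 and Cd68 at 12.28, had means of 10.43 to 10.68 in controls and 10.27 to 10.97 in irradiated cultures. They were lowest in both cultures of experiment 1, where Mmp12, the elastase named for macrophages, was highest. Of the 6 neutrophil markers 1, S100a8, reached the median gene, and Camp (5.78), Elane (4.67), Mpo (4.36), Ngp (4.24) and S100a9 (3.55) did not. At an unadjusted p under 0.05 for irradiation limma gave 2 of these 6, against 3.31% of all genes: Camp at 0.35 (SE 0.089), higher in all 3 experiments with groups that did not overlap, and S100a9 at -0.29 (SE 0.092), lower in all 3. Neither passed after Benjamini-Hochberg adjustment. By level, no endothelial marker of 5 and 1 epithelial marker of 5, Epcam, reached the median gene. Among 7 measured stromal markers 6 reached the median gene, and Thy1, which is commonly used to define mesenchymal stem cells, was dim at 3.88. At an unadjusted p under 0.05 for irradiation limma gave 1 of these 7, Nt5e at 0.21 (SE 0.081), against 3.31% of all genes. Nt5e was higher in all 3 experiments with groups that overlapped, and it did not pass after Benjamini-Hochberg adjustment. The macrophage, fat cell, endothelial and epithelial lists gave 0. The part of other cells in the Mmp, Adamts and Timp values was not tested.

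Genes that work with these enzymes also gave 0 calls in limma after Benjamini-Hochberg adjustment, in each of 6 lists. The ADAM proteins, membrane-bound relatives, had 6 of 10 above 0 and a median of 0.0050, with Adam33 at 0.23 (SE 0.088) and Adam12 at -0.18 (SE 0.11). The ADAMTS-like proteins, which lack the protease domain, had 5 of 7 above 0 and a median of 0.050, with Adamtsl1 at 0.20 (SE 0.18). The activators of pro-metalloproteases had 8 of 15 above 0 and a median of 0.0033, led by the meprin subunit gene Mep1a (0.41, SE 0.13, level 3.71), the serine protease Hpn (-0.21, SE 0.089) and Plat, tissue plasminogen activator (0.15, SE 0.11).

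Other inhibitors, clearance receptors and related genes, the last including Serpinf1, Pcolce and Pcolce2, had 12 of 15 above 0 and a median of 0.060. Among them Serpinb2, an inhibitor of plasminogen activators, read 8.50, 7.13 and 7.73 in controls and 8.43, 8.15 and 8.15 in irradiated cultures (0.46, SE 0.19). The control of experiment 2 was its lowest array, as it was in 10 of the 15 (15.3% of all genes). That array was the highest in 1 of the 15 (18.1% of all genes). Tfpi2 stood at -0.18 (SE 0.086) and Pzp at -0.18 (SE 0.11). The matrix substrates had 13 of 18 above 0 and a median of 0.072, with Col1a1 at 0.27 (SE 0.155), the versican gene Vcan at 0.21 (SE 0.11) and Col4a1 at -0.18 (SE 0.16). The control of experiment 2 was the lowest array for 8 of these 18 (15.3% of all genes) and the highest for 4 (18.1% of all genes). Transcription factors known to act on Mmp promoters had 7 of 14 above 0 and a median of 0, and the AP-1 genes Fosb and Jund, which differed most, stood at 0.14 (SE 0.086) and -0.090 (SE 0.079).

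At an unadjusted p under 0.05 limma gave 1 gene each in the ADAM list (Adam33), the activator list (Mep1a) and the inhibitor list (Serpinb2), and 0 in the other 3. Together these were 3 of 79 listed genes (3.8%), near the 3.31% of all genes. The 9 genes of the chromosome 9 cluster had 4 above 0, a median of -0.013 and differences from -0.18 to 0.13, so that neighbours on the chromosome had no common direction.

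**Figure D5:**
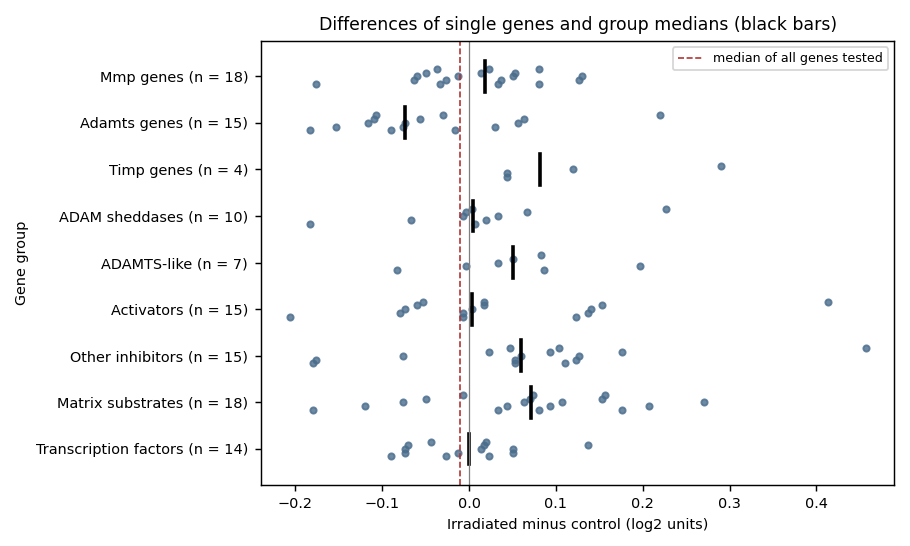
Irradiated minus control in log2 units (x axis) for single genes (points) of the Mmp, Adamts and Timp genes and of 6 lists of related genes (y axis), with black bars at the group medians and a dashed line at the median of all genes tested, -0.010. Group medians run from -0.073 for the Adamts genes to 0.082 for the Timp genes, and no single gene passed the test.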

How the data were processed

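Gene expression was measured on 6 Affymetrix arrays, 3 irradiated and 3 control cultures. The authors deposited log2 expression values per probe set; RMA, affy and limma are named per the submitters' processing notes, with no version. The log base is not stated and was taken from the range, 1.73 to 14.53. Quantile normalization hides a change common to all transcripts, and RMA tends to understate changes of dim probe sets. Of 45101 probe sets, 64 controls were left out, 34945 had 1 symbol, 932 several and 9160 none. Detection calls and array dates were not used here.

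The brightest probe set of each gene was tested with limma 3.58.1 (R 4.3.3; lmFit, eBayes) with the experiment as a block, Benjamini-Hochberg adjusted over 18193 genes, threshold 0.05, with no filter. The series' design text gives the pairing, and deviations of same-numbered arrays correlated at 0.15, -0.090 and -0.012. There were 2 residual degrees of freedom, and the eBayes prior was worth 4.66 more. It was tested on simulated data. Values in every array are given for genes at or above the median gene, the 5 with the largest difference, the 5 with the smallest p and the 5 with the largest F between experiments, and up to 3 genes per related list are named. Genes and lists were chosen with earlier results of these data known. Alternatives were no block, a random block, a trended prior, an unmoderated paired test, no dim genes, median-centred arrays, array weights, means over probe sets, other probe sets and leaving out each experiment. Promoters came from RefSeq.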

Additional observations from a re-analysis of the deposited data

How the results depend on the processing

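In all 11 other settings limma, or the unmoderated paired test, called 0 of the 37 genes for irradiation, and all 18193 genes gave 0 calls except 8 in the unmoderated test, each with 1 identical difference, at 2 decimals, in every experiment. Without the replicate block 0 genes were called, with 649 at an unadjusted p under 0.05 in limma and 0 of the 37, so dropping the block changed no call. Between experiments the count over all genes was 1 with means over probe sets (Lyve1), 2 with the trended prior (Lyve1, Saa3) and 1 without the dim genes (Lyve1), and 0 of the 37 in every setting that gives it. The median of the 37 stayed between -0.055 and 0.035. At an unadjusted p under 0.05 for irradiation limma gave Timp3 with the trended prior, among 522 of 18193 genes. With median-centred arrays it gave Timp3 and Adamts7, among 505 of 18193. Without experiment 1 it gave Adamts7 (0.335) and Adamts15 (-0.42), among 619 of 18193. Between experiments it gave 1 of the 37 without experiment 1 (Mmp12), 8 without experiment 2 and 7 without experiment 3. The share of all genes between experiments was not counted in these fits, so these counts have no share to be set against.

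Signs of single small differences turned in some settings, and the cause was not tested. With means over probe sets these were 8 of the 37, Adamts12 (0.040), Adamts5 (0.025), Adamts9 (0.0011), Mmp14 (0.0078), Mmp19 (-0.0017), Mmp9 (-0.0033), Mmp24 (0.012) and Adamts6 (-0.0017). In other probe sets they were 15 of 33, of Adamts12 (0.19), Adamts5 (0.063, 0.040 and 0.053), Adamts9 (0.12), Mmp14 (0.033 and 0.017), Mmp19 (-0.053), Mmp9 (-0.030), Timp2 (-0.11), Timp4 (-0.057), Adamts10 (0.030), Adamts6 (-0.033) and Mmp24 (0.050 and 0.020). Leaving out each experiment in turn gave ranges across 0 for 25 of the 37. For the 14 of these under the naming rule they were -0.235 to 0.105 for Adamts12, -0.42 to 0.030 for Adamts15, -0.19 to 0.025 for Adamts5, -0.045 to 0.0050 for Adamts9, -0.16 to 0.12 for Mmp12, -0.12 to 0.080 for Mmp14, -0.065 to 0.155 for Mmp16, -0.025 to 0.14 for Mmp19, -0.105 to 0.075 for Mmp2, -0.155 to 0.20 for Mmp23, -0.24 to 0.395 for Mmp3, -0.10 to 0.115 for Mmp9, -0.075 to 0.115 for Timp1 and -0.025 to 0.11 for Timp2. The other 11 were Mmp8 (-0.23 to 0.375), Adamts6 (-0.15 to 0.175), Adamts16, Adamts18, Adamts20, Mmp1b, Mmp7, Mmp10, Mmp17, Mmp20 and Mmp24. The brightest probe set of Timp3 stayed between 0.090 and 0.43. In experiments 1 and 3 the 3 other probe sets of Timp3 stood between -0.050 and 0.030. An array has no depth, and 3 pairs limit what could be seen.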
